A study of Mus musculus with 8 samples.

Results

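Transcripts of 9 genes were followed in the livers of *Rragc* S74N/+ and *Rragc*+/+ mice: the glutathione peroxidase genes *Gpx1*, *Gpx3*, *Gpx4*, *Gpx7* and *Gpx8*, the selenoenzyme genes *Dio1*, *Txnrd2* and *Sephs2*, and *Selenop*, which encodes a selenium carrier. They were taken by gene name from 14506 genes listed in the table. *Gpx3* was chosen by its lower level in *Rragc* S74N/+ livers, so its values by genotype are given as a description with no test. The other members were not chosen on that contrast. Of the 9 genes, 7 had a mean normalized count of at least 10 and entered the fit across 11174 genes, and *Gpx7* and *Gpx8* did not.

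RagC, the product of *Rragc*, is a GTPase through which nutrients activate mTORC1, and S74N is an amino acid substitution knocked in at the endogenous gene and carried on 1 allele in every cell of the body. Whole livers came from 4 *Rragc*+/+ mice (replicates 1 to 3 aged 3 months, replicate 4 aged 2.5 months) and 4 *Rragc* S74N/+ mice (replicates 1 and 2 aged 3 months, replicate 3 aged 2.5 months, replicate 4 aged 2 months). No treatment is given for any of the 8 mice, and their strain and sex are not given in the labels. Libraries were primed from the poly(A) tail and sequenced at transcript 3′ ends, so a normalized count is meant to follow transcript number rather than transcript length. Levels of different genes are set side by side on that scale only as far as their 3′ ends can be told apart from those of other genes. Below, wild-type stands for *Rragc*+/+ and S74N/+ for *Rragc* S74N/+. A normalized count is a read count divided by a size factor of the liver.

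Selenoenzymes carry selenocysteine, which is read from an in-frame UGA codon that would otherwise end translation. Glutathione peroxidases reduce peroxides at the cost of glutathione, iodothyronine deiodinases activate or inactivate thyroid hormone, and thioredoxin reductases keep thioredoxins reduced. The liver takes up dietary selenium, builds it into these enzymes and exports part of it to other organs in selenoprotein P, the product of *Selenop*.

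The codon that sets these enzymes apart is shown first, since it divides the peroxidases into a selenium-dependent and a selenium-independent set. Each line gives coding sequence of the principal GENCODE vM21 transcript, 5′ to 3′ on the sense strand, with the active-site codon in capitals and up to 30 bases on either side. TGA in capitals is the selenocysteine codon, and TGT and TGC are cysteine codons aligned with it.
Gpx1: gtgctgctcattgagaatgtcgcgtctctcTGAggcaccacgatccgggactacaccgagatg
Gpx3: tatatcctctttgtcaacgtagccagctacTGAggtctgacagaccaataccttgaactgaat
Gpx4: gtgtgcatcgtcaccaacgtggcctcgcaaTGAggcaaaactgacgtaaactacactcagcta
Gpx7: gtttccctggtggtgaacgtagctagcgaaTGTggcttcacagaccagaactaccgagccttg
Gpx8: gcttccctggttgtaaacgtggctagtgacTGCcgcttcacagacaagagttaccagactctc

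These codons lie, on GRCm38, at chr9:108339451-108339453 for *Gpx1* (codon 47 of 201, exon 1 of 2, forward strand), chr11:54907256-54907258 for *Gpx3* (codon 73 of 226, exon 2 of 5, forward strand) and chr10:80054737-80054739 for *Gpx4* (codon 73 of 197, exon 3 of 7, forward strand). The cysteine codons lie at chr4:108403430-108403432 for *Gpx7* (codon 56 of 186, exon 2 of 3, reverse strand) and chr13:113045661-113045663 for *Gpx8* (codon 79 of 209, exon 2 of 3, reverse strand). GPX7 and GPX8 are peroxidases of the endoplasmic reticulum.

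The other members differ in where the selenocysteine codon stands in the protein, and are shown in the same way.
Dio1: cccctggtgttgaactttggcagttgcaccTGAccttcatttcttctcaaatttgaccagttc
Txnrd2: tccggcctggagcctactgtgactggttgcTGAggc
Sephs2: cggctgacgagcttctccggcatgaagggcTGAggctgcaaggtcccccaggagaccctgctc
Selenop: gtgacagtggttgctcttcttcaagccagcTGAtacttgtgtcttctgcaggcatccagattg

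The *Dio1* codon (chr4:107297700-107297702, reverse strand) is codon 126 of 257 in exon 2 of 4. The *Txnrd2* codon (chr16:18477772-18477774, forward strand) is codon 526 of 527 in exon 17 of 18, so that the shown sequence ends with the coding region. The *Sephs2* codon (chr7:127273731-127273733, reverse strand) is codon 63 of 452 in a gene of 1 exon. *Selenop* is annotated with 10 selenocysteine codons, and the sequence shows the first of them (chr15:3274848-3274850, forward strand, codon 59 of 380, exon 2 of 5).

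Whole reads were recovered from the normalized counts, and 4313076 to 6632108 reads fell in listed genes per liver. All 8 hepatocyte markers (*Alb*, *Apoa1*, *Ttr*, *Cps1*, *Ass1*, *Serpina1a*, *Tat* and *Cyp2e1*) were listed, with a summed normalized count between 239933 and 449869 per liver. None of the 8 pancreas markers was listed. All 8 male-biased liver genes that were tested had a log2 fold change below 0 in S74N/+ livers and none was called. Their summed level was 65613 to 72935 in wild-type livers and 56864, 32074, 56735 and 16876 in the S74N/+ livers (replicates 1 to 4, in order). The lowest was replicate 4, the 2-month-old mouse. That liver also stood at the end of the first principal component of the other genes, so values without it are given where they bear on a member. The study counts each liver as a mouse, and the lowest chi-square per degree of freedom between any pair of the 28 pairs of livers was 13.06.

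The members spanned a wide range of levels. *Gpx1*, the cytosolic peroxidase, was the most abundant, with a median normalized count of 16457 over the 8 livers. *Selenop* followed at 5248, then *Sephs2* at 1151, *Dio1* at 230.3, *Txnrd2* at 131, *Gpx3* at 91.1 and *Gpx4* at 16.8. *Gpx7* (8.16) and *Gpx8* (4.16) were lowest. *Gpx1* exceeded *Selenop*, *Selenop* exceeded *Sephs2* and *Sephs2* exceeded *Dio1* in 8 of 8 livers. The later neighbours overlapped: *Dio1* exceeded *Txnrd2* in 7 livers, *Txnrd2* exceeded *Gpx3* in 5, *Gpx3* exceeded *Gpx4* in 6, *Gpx4* exceeded *Gpx7* in 7 and *Gpx7* exceeded *Gpx8* in 6. The place of *Gpx4* depends on how reads are assigned between it and its pseudogene *Gpx4-ps2*, and on whether reads that match both were counted. Summed, the pair gave 72.9 to 129 per liver and exceeded *Gpx3* in the 4 S74N/+ livers.

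**Figure D1:**
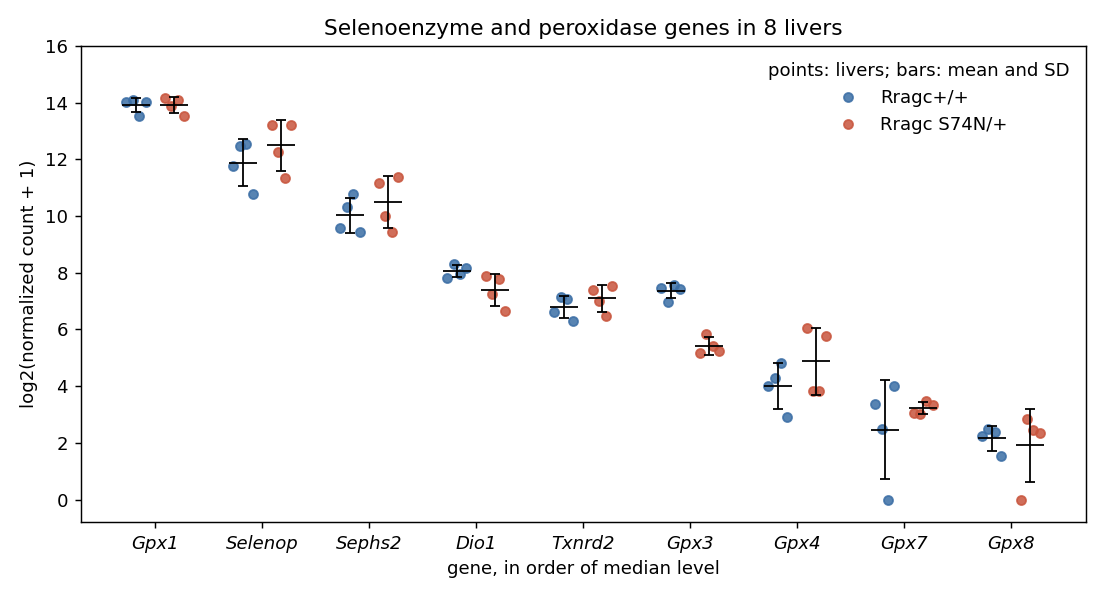
Level of each member as log2(normalized count + 1), with 1 point per liver, wild-type at the left and S74N/+ at the right of each gene, and black bars for the mean and SD of the 4 log2 values. The *Gpx3* points of the genotypes do not overlap, whereas the points of every other member do.

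Across the 11174 genes tested, limma called 1 gene at an adjusted p under 0.05 (0.00895% of those tested), edgeR's quasi-likelihood test on the recovered reads called 1, and DESeq2 called 10. The gene called by limma was *Gpx3*, whose contrast chose it, and nothing is read from that call. At an unadjusted limma p under 0.05 there were 578 genes (5.17%), against 618 in edgeR and 675 in DESeq2. The values of the genotypes did not overlap for 328 genes (2.94%). Of the 6 members tested other than *Gpx3*, 0 were called, 1 (*Dio1*) had an unadjusted p under 0.05 in each of the 3 tools, and 0 had values without overlap between genotypes.

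The peroxidases are described first. *Gpx3* encodes the secreted plasma peroxidase, which is made mainly in the kidney. Its normalized count was 174, 125, 191 and 173 in the wild-type livers (replicates 1 to 4, in order) and 34.9, 56.9, 41.2 and 36.7 in the S74N/+ livers. The lowest wild-type liver therefore stood above the highest S74N/+ liver. The means were 166 ± 28.3 and 42.4 ± 9.997 (SD, n = 4 each), a 3.91-fold lower mean and on the log2 scale a fold change of -1.95 (standard error 0.25). Between 37 and 187 reads stood behind each value. The spread among livers of a genotype was 20.6% of the mean, against 12.1% that counting of reads alone would give. In the 3-month-old mice alone the means were 164 (n = 3) and 45.9 (n = 2), and the log2 fold change was -1.83. Without S74N/+ replicate 4 it was -1.89. In whole liver, fewer cells that make a transcript and less transcript per cell cannot be told apart.

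*Gpx3* was a small part of the peroxidase transcripts. It made up 0.713% to 1.57% of the summed normalized counts of the 5 *Gpx* genes in wild-type livers and 0.189% to 0.376% in S74N/+ livers, while *Gpx1* made up 98.2% to 99.6% over the 8 livers. The summed level of the 5 genes ranged from 12166 to 17565 in wild-type and from 11959 to 18434 in S74N/+ livers.

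Since *Gpx3* is known as a kidney transcript, markers of kidney were read in the same livers. Of 16 kidney markers, 8 were listed and 3 had a mean of at least 10. *Slc22a6*, *Slc22a12*, *Slc5a2*, *Slc5a12*, *Umod*, *Aqp2*, *Cdh16* and *Slc22a8*, which include defining transporters of the proximal tubule, were not among the listed genes. The summed normalized count of the 8 listed markers was 127, 139, 122 and 235 in the wild-type livers (replicates 1 to 4, in order) and 109, 68.4, 51.3 and 38.3 in the S74N/+ livers, without overlap. The marker with the highest mean was *Kap*, an androgen-responsive kidney gene, at 95.7 ± 45.4 in wild-type and 24.6 ± 19.1 in S74N/+ livers (SD, n = 4 each, limma log2 fold change -2.20, adjusted p = 0.846). The next markers were *Acsm2* (15.0 ± 3.47 and 14.6 ± 15.5) and *Napsa* (13.8 ± 7.75 and 7.91 ± 5.001). *Miox*, an enzyme of the renal tubule chosen for mention after its values were seen, was between 1.87 and 22.4 in wild-type livers and between 0 and 5.51 in S74N/+ livers. The remaining listed markers also had means under 10. *Lrp2* was at 6.92 ± 4.05 and 4.93 ± 3.90, and *Slc34a1* at 8.17 ± 5.93 and 8.90 ± 6.55. *Slc12a1* was at 2.46 ± 2.34 and 2.52 ± 5.05, and *Slc12a3* at 1.17 ± 1.41 and 1.56 ± 2.11. The mean of the sum was 156 in wild-type and 66.8 in S74N/+ livers, and *Kap* was the largest part of both means. *Kap* was the only listed marker whose genotypes did not overlap, which held for 2.94% of all genes tested. Without *Kap*, the sum of the other listed markers overlapped between genotypes. The part of kidney or other cells in the *Gpx3* difference was not tested.

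**Figure D2:**
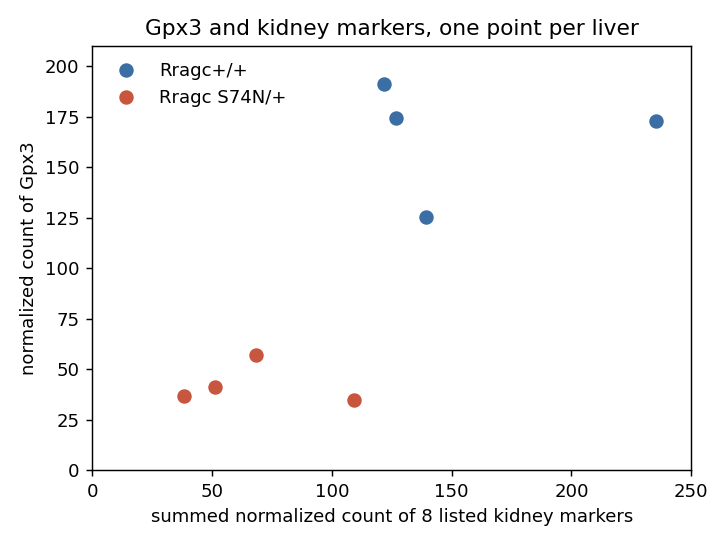
Normalized count of *Gpx3* against the summed normalized count of the 8 listed kidney markers, with 1 point per liver. The 4 wild-type livers lie at 122 or more on the horizontal and 125 or more on the vertical axis, and the 4 S74N/+ livers at no more than 109 and 56.9. By mean level, *Kap* was the largest part of the sum in both genotypes. *Kap* was the only one of the 8 markers whose genotypes did not overlap, and without it the sums overlapped.

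The other markers read beside *Gpx3* were those of fat, where *Gpx3* is also made. Of 8 adipocyte markers 4 were listed (*Adrb3*, *Fabp4*, *Cfd* and *Cidec*), and *Adipoq*, *Plin1*, *Lep* and *Retn* were not. Their summed level was 69.2 to 84.9 in wild-type and 48.0 to 69.1 in S74N/+ livers. *Adrb3* was at 55.8 ± 8.24 and 36.3 ± 13.9, *Fabp4* at 11.5 ± 3.77 and 16.3 ± 11.8, and *Cfd* at 7.13 ± 2.50 and 1.06 ± 1.58 (SD, n = 4 each, wild-type first). None of the 2 tested was called.

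The genes whose levels were most like those of *Gpx3* were taken from 6917 genes with a mean of at least 50. Over the 8 livers the highest Pearson correlations of log2 values were with *Ctns* (r = 0.94) and *Serpina3k*, *Cd151*, *Acp2* and *Xab2* (r = 0.93 each). *Ctns*, which encodes the lysosomal cystine transporter, was at 140 ± 15.4 in wild-type and 74.2 ± 10.4 in S74N/+ livers. *Acp2*, a lysosomal acid phosphatase, was at 229 ± 21.1 and 164 ± 6.77, and *Serpina3k*, a secreted protease inhibitor, at 65744 ± 10657 and 37682 ± 2403 (SD, n = 4 each). None of these 5 overlapped between genotypes, as the way they were found favours. Once each genotype's mean was taken away, a different list led: *Elf2* (r = 0.99), *Cnp* (0.97), *Triobp* (0.94), *Hmox1* (0.93) and *Mis12* (0.92). *Hmox1*, the heme oxygenase gene, was at 66.5 ± 25.9 in wild-type and 79.0 ± 42.7 in S74N/+ livers. These are descriptions over 8 livers that share libraries and scaling, and were picked as the top of many.

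The genotypes overlapped in *Gpx1*. Its normalized count was 16439, 17412, 11943 and 16476 in the wild-type livers (replicates 1 to 4, in order) and 18327, 15029, 17433 and 11857 in the S74N/+ livers. The lowest liver of each genotype was 11943 and 11857, and the ranges overlapped almost completely. Means were 15567 ± 2458 and 15661 ± 2894 (SD, n = 4 each), with a log2 fold change of 0.00 (95% interval -0.48 to 0.49, limma adjusted p = 0.998, exact two-sided permutation p = 0.971 over 70 labellings, of which the smallest possible is 0.0286). Without S74N/+ replicate 4 the log2 fold change was 0.131. Its sign turned under 4 of the other settings tried. *Gpx1* is a selenoprotein whose transcript is known to fall when selenium is short.

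*Gpx4* encodes the phospholipid hydroperoxidase that guards membranes against lipid peroxidation and ferroptosis. Its normalized count was 14.9, 18.7, 26.9 and 6.54 in the wild-type livers (replicates 1 to 4, in order) and 65.2, 13.3, 13.4 and 53.0 in the S74N/+ livers. S74N/+ replicates 1 and 4 stood above all other livers, and the remaining S74N/+ livers lay within the wild-type range. The log2 fold change was 0.87 (standard error 0.60, 95% interval -0.42 to 2.16, limma adjusted p = 0.846, exact permutation p = 0.314), from 7 to 71 reads per liver. It was 0.58 without S74N/+ replicate 4, 0.48 without S74N/+ replicate 1 and 0.51 without wild-type replicate 4, and was not called in any of these. These counts are low for a gene known as abundant in liver, and the reads of *Gpx4* cannot be cleanly separated from those of a pseudogene.

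*Gpx4-ps2* (chr10:45875291-45876086, forward strand) is an annotated transcribed processed pseudogene of *Gpx4*. It was chosen for mention after its values were seen. The last 300 bases of the *Gpx4* transcript, the part this assay reads, matched *Gpx4-ps2* over all 300 bases at 99.7% identity. In none of the other 8 members did those bases match a transcript of another gene over at least 50 bases at 94% or more. The pseudogene's copy of the active-site region is shown for comparison with that of *Gpx4* above. It is from the annotated transcript *Gpx4-ps2-201*, which aligns with bases 184 to 738 of the 959 in the *Gpx4* transcript. The match over the last 300 bases is therefore with another annotated transcript of the pseudogene.
Gpx4-ps2: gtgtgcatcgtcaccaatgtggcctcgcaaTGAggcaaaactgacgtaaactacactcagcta

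The copy differed from *Gpx4* by 1 base in 63, C18T counted from the first base shown. The normalized count of *Gpx4-ps2* was 102, 91.7, 87.7 and 106 in the wild-type livers (replicates 1 to 4, in order) and 63.4, 59.5, 65.7 and 37.5 in the S74N/+ livers, higher than that of *Gpx4* except in S74N/+ replicates 1 and 4. Its genotypes did not overlap (log2 fold change -0.79, limma adjusted p = 0.846), nor did those of 2.94% of all genes tested. *Gpx4* took 5.83% to 23.5% of the reads counted for both genes in wild-type livers and 16.9% to 58.6% in S74N/+ livers. Together they gave 117, 110, 115 and 112 in wild-type livers and 129, 72.9, 79.1 and 90.6 in S74N/+ livers. With the counts summed, an alternative added after the data were seen, the log2 fold change turned from 0.87 to -0.32 (limma adjusted p = 0.847). The direction of *Gpx4* therefore depends on which of the genes the reads are assigned to. Whether reads that match both genes were counted at all is not known. Neither the counts of *Gpx4* nor the sum can therefore be taken as its level.

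**Figure D3:**
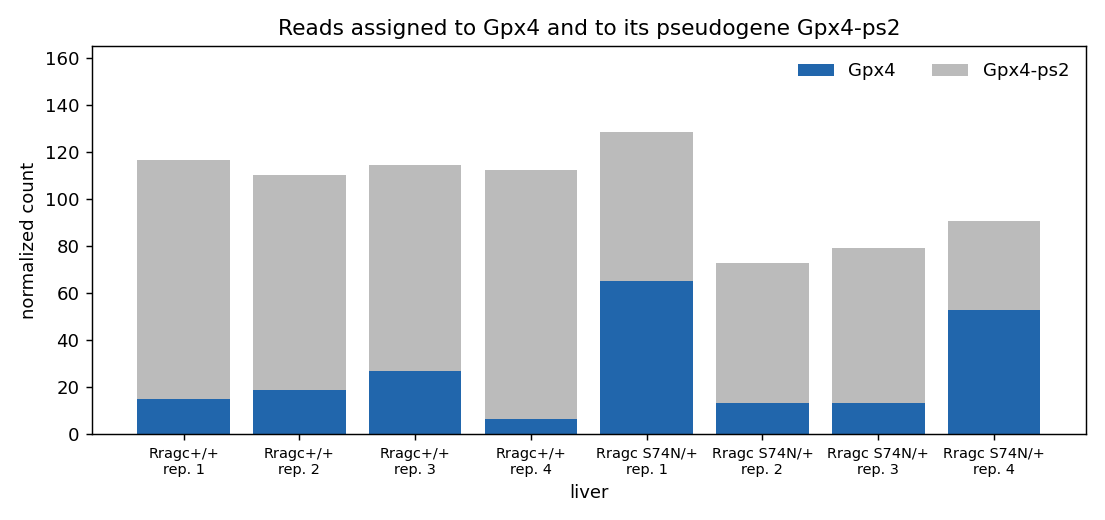
Normalized counts assigned to *Gpx4* (blue) and to *Gpx4-ps2* (grey, stacked on it) in each liver. The stacks of the 4 wild-type livers reach 110 to 117, and the blue part is largest in S74N/+ replicates 1 and 4, at 65.2 and 53.0.

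*Gpx7* and *Gpx8*, the cysteine peroxidases, were at the limit of detection. *Gpx7* was at 9.32, 4.68, 0 and 14.9 in the wild-type livers (replicates 1 to 4, in order) and at 7.34, 7.11, 10.03 and 8.97 in the S74N/+ livers. *Gpx8* was at 3.73, 4.68, 4.24 and 1.87 in wild-type replicates and at 0, 6.22, 4.46 and 4.08 in S74N/+ replicates. At most 16 reads stood behind a value. The value of 0 for *Gpx7* allowed up to 4.24 normalized counts and that for *Gpx8* up to 2.75, the worth of 3 reads, which covers counting error only. A difference between genotypes was not detectable at this depth.

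Among the other enzymes, *Dio1* had the lowest unadjusted p of the members tested. DIO1 removes iodine from thyroxine to give the active thyroid hormone. The normalized count of *Dio1* was 226, 317, 248 and 288 in the wild-type livers (replicates 1 to 4, in order) and 235, 153, 216 and 100 in the S74N/+ livers. Only S74N/+ replicate 1 lay within the wild-type range, and replicate 4 was lowest. Means were 269 ± 40.8 and 176 ± 61.5 (SD, n = 4 each). The log2 fold change was -0.67 (standard error 0.27, 95% interval -1.26 to -0.08), but the limma adjusted p was 0.846 and the exact permutation p 0.0571, so *Dio1* was not called. Without S74N/+ replicate 4 the log2 fold change was -0.43, and in the 3-month-old mice alone it was -0.46.

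Other genes of thyroid hormone transport and response were read beside *Dio1*. Of 10, 8 were tested, 0 were called, and 4 had a log2 fold change above 0 and 4 below it, with a median of -0.03 against 0.01 over all genes tested. *Ttr*, the thyroxine carrier, was at 73290 ± 7920 in wild-type and 88156 ± 7436 in S74N/+ livers. *Klf9*, a thyroid hormone responsive factor, was at 1053 ± 393 and 1481 ± 470 (SD, n = 4 each).

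*Txnrd2*, the mitochondrial thioredoxin reductase gene, was at 96.9, 141, 134 and 78.5 in the wild-type livers (replicates 1 to 4, in order) and at 166, 128, 86.9 and 184 in the S74N/+ livers. The highest values were those of S74N/+ replicates 4 and 1, and the genotypes overlapped. The log2 fold change was 0.31 (standard error 0.29, 95% interval -0.32 to 0.93, limma adjusted p = 0.852, exact permutation p = 0.314). Leaving out S74N/+ replicate 4 gave 0.16, wild-type replicate 4 gave 0.15 and S74N/+ replicate 3 gave 0.52, none of them called.

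*Sephs2* encodes the enzyme that makes selenophosphate, the selenium donor for selenocysteine, and is itself a selenoprotein. Its normalized count was 767, 1273, 1737 and 685 in the wild-type livers (replicates 1 to 4, in order) and 2301, 1028, 689 and 2638 in the S74N/+ livers. Its lowest values, 685 and 689, came from the 2.5-month-old mouse of each genotype. The log2 fold change was 0.47 (standard error 0.41, 95% interval -0.42 to 1.37, limma adjusted p = 0.850, exact permutation p = 0.4). The value was 0.18 without S74N/+ replicate 4, 0.25 without S74N/+ replicate 1 and 0.27 without wild-type replicate 4. It was 0.83 without S74N/+ replicate 3 and 0.72 without wild-type replicate 3, and again none was called.

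*Selenop* was at 3517, 5629, 5999 and 1734 in the wild-type livers (replicates 1 to 4, in order) and at 9399, 4868, 2581 and 9527 in the S74N/+ livers. S74N/+ replicates 1 and 4 exceeded every wild-type liver, and the 2.5-month-old mouse was again the lowest of each genotype. Means were 4220 ± 1985 and 6594 ± 3443 (SD, n = 4 each). The log2 fold change was 0.61 (standard error 0.45, 95% interval -0.36 to 1.58, limma adjusted p = 0.846, exact permutation p = 0.343). With S74N/+ replicate 4 left out it was 0.37, with S74N/+ replicate 1 left out 0.38, with wild-type replicate 4 left out 0.24 and with S74N/+ replicate 3 left out 1.001, and it was called in none. *Selenop* took 6.88% to 33.0% of the summed level of the 20 listed selenoprotein genes, and *Gpx1* took 41.1% to 66.1%.

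The spread within a genotype was 49.7% of the mean for *Selenop* and 50.9% for *Sephs2*, where counting alone would give 1.58% and 3.02%. How this compares with the spread of other genes was not tested. *Selenop* and *Sephs2* placed the 8 livers in the same order, from S74N/+ replicates 4 and 1 and wild-type replicate 3 at the top to S74N/+ replicate 3 and wild-type replicate 4 at the bottom. *Txnrd2* had the same order except that wild-type replicates 2 and 3 changed places. The reads assigned to *Gpx4* had the same 3 livers at the top and the same liver at the bottom, but its sum with *Gpx4-ps2* did not: there S74N/+ replicate 4 (90.6) lay below every wild-type liver and wild-type replicate 4 (112) was not the lowest. The first principal component of 500 variable genes, computed without the members and the selenoprotein list, held 45.9% of their variance and placed the livers in nearly the order of *Selenop*, with only wild-type replicate 2 and S74N/+ replicate 2 changing places. The component and these members share libraries and scaling. *Gpx1* and *Dio1* had their lowest value in S74N/+ replicate 4, the liver with the highest score.

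**Figure D4:**
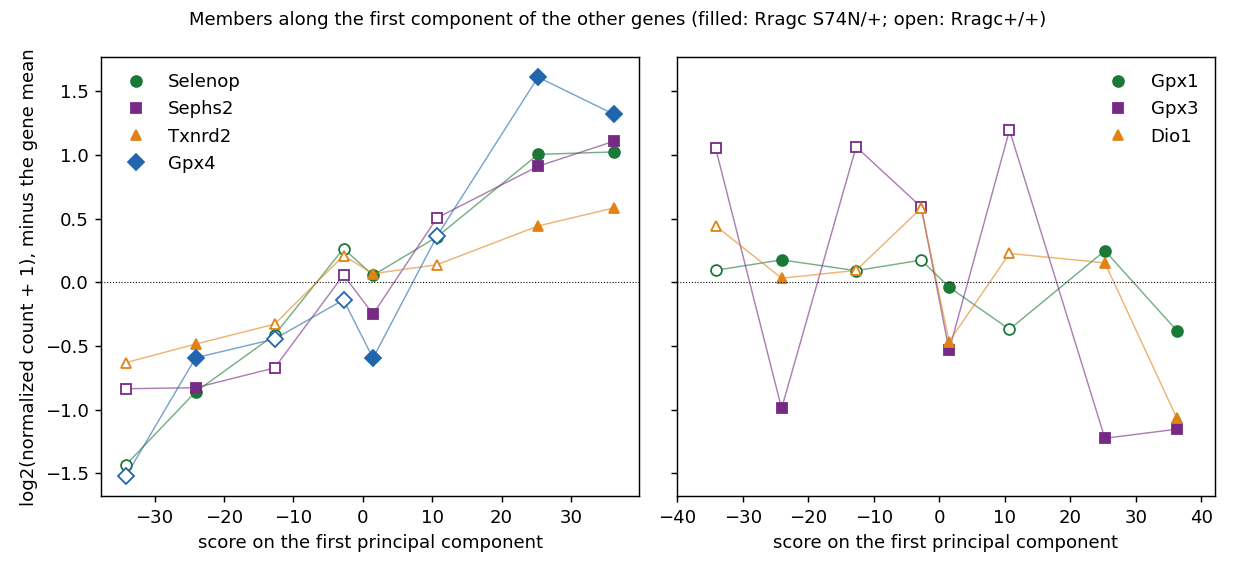
Log2(normalized count + 1) of each member minus its mean over the 8 livers, against the score of the liver on the first principal component of the other genes, with S74N/+ livers filled and wild-type livers open. *Selenop*, *Sephs2*, *Txnrd2* and *Gpx4* (left) were lowest in the liver with the lowest score, wild-type replicate 4, and highest in S74N/+ replicates 1 and 4, and *Gpx1*, *Gpx3* and *Dio1* (right) were not. The *Gpx4* points are the reads assigned to it alone, and its sum with *Gpx4-ps2* has another order.

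Because *Selenop* and *Sephs2* ranked the livers alike, the 250 bases before their RefSeq transcription starts are shown (table build GRCm38.p6, sense strand of the gene). The *Sephs2* stretch is chr7:127274060-127274309 (reverse strand) and the *Selenop* stretch, before the most upstream of its 3 listed starts, is chr15:3270517-3270766 (forward strand). Capitals mark CACGTG, the E-box core.
Sephs2: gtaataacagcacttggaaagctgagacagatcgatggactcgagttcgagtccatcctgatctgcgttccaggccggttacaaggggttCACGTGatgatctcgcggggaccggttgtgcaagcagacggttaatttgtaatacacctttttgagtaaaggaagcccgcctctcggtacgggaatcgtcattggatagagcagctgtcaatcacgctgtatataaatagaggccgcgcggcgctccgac
Selenop: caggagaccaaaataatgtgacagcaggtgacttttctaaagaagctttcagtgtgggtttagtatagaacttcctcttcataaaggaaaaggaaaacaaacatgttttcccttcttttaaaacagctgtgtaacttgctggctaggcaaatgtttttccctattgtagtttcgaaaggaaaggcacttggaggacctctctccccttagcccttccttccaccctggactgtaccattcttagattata

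Both strands were searched for CACGTG and for TGACNNNGC, the core of the antioxidant response element, and the patterns do not overlap each other in these stretches. CACGTG was found 1 time, before *Sephs2*, and in 6.02% of the 32851 stretches of the same length before all listed starts. TGACNNNGC was found in 10.2% of all stretches. Of the 14 stretches before starts of the 9 members, all of which matched the RefSeq table by symbol, none held TGACNNNGC and 1 held CACGTG. A match is a run of letters and not a bound site, and the absence of a match says only that these letters are not in the window.

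The remaining selenoproteins were read for comparison. Of 24 mouse selenoprotein genes 20 were listed, and *Gpx2*, *Dio2*, *Dio3* and *Selenov* were not. Besides the members, 12 were tested and 0 were called. Of these, 5 had a log2 fold change above 0 and 7 below it, with a median of -0.14 against 0.01 over all genes tested. The thioredoxin reductase genes *Txnrd1* (log2 fold change -0.37 ± 0.29) and *Txnrd3* (0.27 ± 0.32), the methionine sulfoxide reductase gene *Msrb1* (-0.10 ± 0.21) and the small redox selenoprotein gene *Selenow* (-0.57 ± 0.24) are given with the standard error. *Selenow* was at 335 ± 23.8 in wild-type and 234 ± 78.8 in S74N/+ livers (SD, n = 4 each, limma adjusted p = 0.846, exact permutation p = 0.114), and was the only one of the 12 with an unadjusted limma p under 0.05.

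The selenoproteins of the endoplasmic reticulum also lay on both sides of 0, with *Selenof* at 0.69 ± 0.57, *Selenok* at 0.36 ± 0.33, *Selenos* at 0.06 ± 0.19, *Selenot* at -0.18 ± 0.19 and *Selenom* at -0.84 ± 0.58 (log2 fold change ± standard error). *Selenoo*, a mitochondrial pseudokinase gene, was at 0.30 ± 0.20, *Selenoi*, a phospholipid synthesis gene, at -0.23 ± 0.23, and *Selenoh*, a nucleolar selenoprotein gene, at -0.34 ± 0.33. *Selenon* fell under the filter with a mean of 8.01. The summed level of the 20 listed genes was 25024 to 29948 in wild-type and 26038 to 36042 in S74N/+ livers, or 0.41% to 0.629% of the reads in listed genes.

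**Figure D5:**
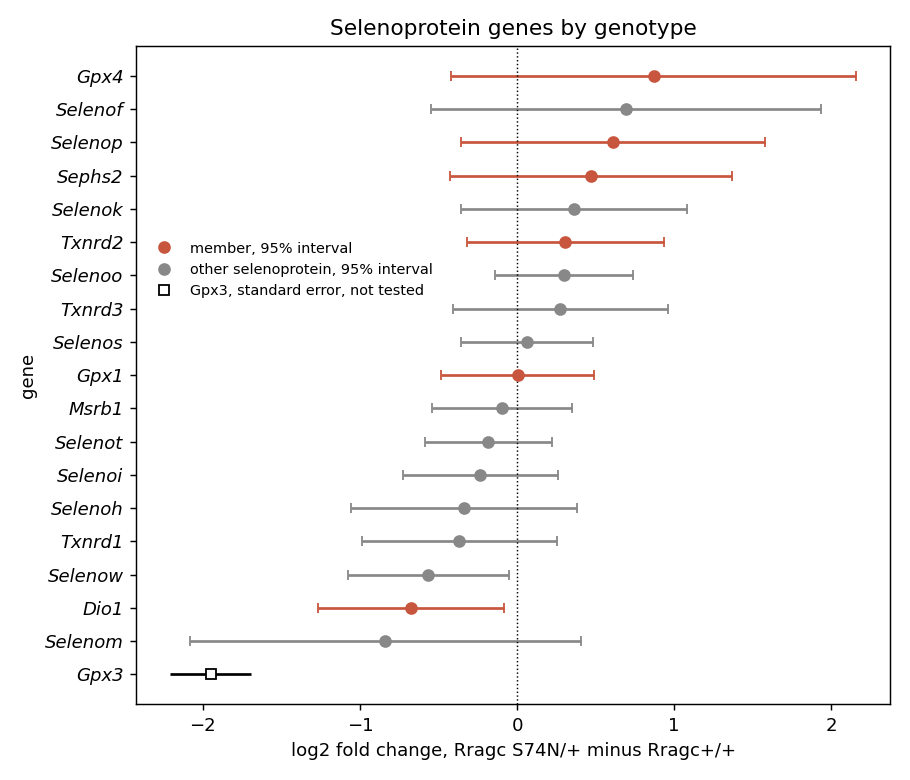
Log2 fold change of S74N/+ against wild-type livers for the 19 selenoprotein genes tested, with 95% intervals for members (red) and other genes (grey), and the standard error alone for *Gpx3* (open square), which was chosen on this contrast. Among the 18 genes other than *Gpx3*, only the intervals of *Dio1* and *Selenow* lie wholly on 1 side of 0, before adjustment.

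Transcripts of 4 selenoproteins known to fall first when selenium is short (*Gpx1*, *Msrb1*, *Selenow* and *Selenoh*) had a median log2 fold change of -0.22, 3 of them below 0, and 0 were called. The list for selenocysteine synthesis and insertion had 12 genes, among them also a gene of its breakdown and regulators of insertion. All 12 were tested and 0 were called, with 5 above and 7 below 0 and a median of -0.08. Besides *Sephs2*, the most abundant were *Rpl30* (1017 ± 196 in wild-type and 1375 ± 386 in S74N/+ livers), a ribosomal protein that binds the selenocysteine insertion element, and *Ncl* (578 ± 158 and 555 ± 196), which encodes nucleolin. *Secisbp2*, which encodes the protein that recruits the selenocysteine elongation factor, was the 1 gene of the list whose genotypes did not overlap, and was chosen for mention after its values were seen. It was at 118, 95.4, 124 and 106 in the wild-type livers (replicates 1 to 4, in order) and at 81.7, 82.7, 91.4 and 81.6 in the S74N/+ livers (log2 fold change -0.39, limma adjusted p = 0.846). Of all genes tested, 2.94% had values without overlap. No permutation p is given, since the lack of overlap by which it was picked fixes that p.

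Of 6 genes for selenium uptake and binding, 4 were tested and 0 were called, with a median of 0.01. *Selenbp2*, which encodes a selenium-binding protein that carries no selenocysteine, was at 4624, 7042, 5308 and 5981 in the wild-type livers (replicates 1 to 4, in order) and at 2995, 1511, 3319 and 225.2 in the S74N/+ livers. The genotypes did not overlap, nor did those of 2.94% of all genes tested. S74N/+ replicate 4 was far below the rest. The log2 fold change of *Selenbp2*, -2.06 ± 0.64 (standard error), was not called (limma adjusted p = 0.846). Its close relative *Selenbp1* was at 1395 ± 221 and 1571 ± 390 (SD, n = 4 each).

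Glutathione is the electron donor of the peroxidases. Of 10 genes for its supply, 7 were tested and 0 were called, with 2 above and 5 below 0 and a median of -0.05. The subunits of glutamate-cysteine ligase, *Gclc* (2534 ± 588 and 2440 ± 454) and *Gclm* (2019 ± 112 and 1792 ± 698), and the oxoprolinase gene *Oplah* (1198 ± 160 and 821 ± 392) were the most abundant (SD, n = 4 each, wild-type first). *Ggct*, a gene of glutathione breakdown chosen for mention after its values were seen, was at 67.9 ± 18.1 and 37.0 ± 5.82 without overlap (limma log2 fold change -0.84, adjusted p = 0.846). A lack of overlap was found in 2.94% of all genes tested.

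Enzymes that remove peroxide or superoxide without selenium were read as a further comparison. The list also held thioredoxins and other thiol proteins that do not remove them. All 14 genes of the list were tested, 11 were above 0 and 3 below, the median was 0.18, and 0 were called. *Sod1*, the cytosolic superoxide dismutase gene, was at 15052 ± 2628 and 13843 ± 2748, *Cat*, the catalase gene, at 4765 ± 1014 and 5165 ± 1165, and *Prdx1*, a peroxiredoxin gene, at 3582 ± 1889 and 5484 ± 2897 (SD, n = 4 each, wild-type first).

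*Selenop* belongs with gluconeogenic genes among the targets of FoxO1 and HNF4α in hepatocytes, and 6 gluconeogenic genes and regulators were read beside it. All 6 were above 0, with a median log2 fold change of 0.58 against 0.01 over all genes tested, and 0 were called. *G6pc* was at 1292 ± 477 in wild-type and 2174 ± 1092 in S74N/+ livers, *Pck1* at 715 ± 238 and 1942 ± 1537, and *Igfbp1* at 190 ± 84.98 and 1015 ± 924 (SD, n = 4 each). *Igfbp1*, which encodes an insulin-like growth factor binding protein, was the 1 gene of the list without overlap (limma adjusted p = 0.846). Over all genes tested, 2.94% had values without overlap. The highest wild-type liver for *Igfbp1* was at 275 and the lowest S74N/+ liver at 279. In S74N/+ replicates 1 to 4, in order, *Igfbp1* was at 1191, 338, 279 and 2252, and *Pck1* at 1999, 823, 849 and 4095. Replicates 1 and 4 were thus the highest S74N/+ livers for both genes. These livers also had the highest scores of the 8 on the first principal component. The part of FoxO1 or HNF4α in the values of *Selenop* was not tested.

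Markers of other liver cells were not called by limma either. Of 7 Kupffer cell markers, 5 were above 0 and 2 below, with *Csf1r* at 1176 ± 237 and 911 ± 232, *Cd5l* at 792 ± 222 and 894 ± 306 and *Clec4f* at 423 ± 98.2 and 331 ± 104. The macrophage receptor genes *Marco* (22.2 ± 2.33 and 88.9 ± 39.2, without overlap, limma log2 fold change 1.82, adjusted p = 0.846) and *Adgre1* (51.8 ± 13.8 and 96.1 ± 43.5) were chosen for mention after their values were seen. Values without overlap were found for 2.94% of all genes tested. Of 8 endothelial and stellate markers, 4 were above and 4 below 0, with *Dcn* at 1650 ± 187 and 1495 ± 161, *Kdr* at 492 ± 105 and 544 ± 77.2 and *Clec4g* at 260 ± 64.1 and 234 ± 30.3 (SD, n = 4 each, wild-type first). *Pecam1*, an endothelial adhesion gene (65.3 ± 25.2 and 117 ± 28.1, limma log2 fold change 0.88), and *Col1a1*, a collagen gene (78.4 ± 43.9 and 138 ± 37.0, limma log2 fold change 0.96), were likewise chosen after their values were seen, and both had an adjusted p of 0.846. Of the 8 hepatocyte markers, 6 were above and 2 below 0, with *Alb* at 91226 ± 50784 and 151424 ± 72479 and *Apoa1* at 83082 ± 6813 and 66754 ± 11311. Among male-biased genes, *Mup20* was at 43941 ± 5787 and 22464 ± 14663, *Cyp2d9* at 13288 ± 1945 and 9141 ± 5266 and *Cyp4a12a* at 4460 ± 570 and 4488 ± 2547. Their part in the values of the members was not tested.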

How the data were processed

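RNA of 8 whole livers was profiled with a QuantSeq 3′ FWD kit. RNA integrity numbers, per the labels, averaged 7.2 (6.7 to 7.9). Per the submitters' processing notes and the study's methods, the authors checked reads with FastQC 0.11.7, aligned them to GRCm38 with TopHat2 2.0.10, Bowtie 1.0.0 and SAMtools 0.1.19, allowing multiple hits, and counted them by strand with HTSeq 0.6.1. Each gene has, in the deposited signal, 1 read count per liver divided by a size factor. All values (100%) were whole multiples of what 1 read was worth in that liver (tolerance 0.001 reads), so whole reads were recovered. Reads are not independent molecules, and totals are of listed genes, not of full depth.

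Groups were taken from the labels, and replicate numbers only name a liver. Log2(normalized count + 1) was fitted with limma 3.58.1 (R 4.3.3, trend) on genotype for 11174 genes whose mean reached 10, with Benjamini-Hochberg adjustment at 0.05. The adjustment gave many genes the same adjusted p of 0.846, so that value does not rank them. Among them, the unadjusted limma p was 0.000276 for *Marco* and 0.195 for *Selenop*. The log2 scale understates changes of low genes. The authors tested with DESeq. Alternatives were edgeR 4.0.16 and DESeq2 1.42.0 on the recovered reads, pseudocounts of 0.1 and 5, no filter or a mean of 50, TMM and upper-quartile scaling, no trend, age as a covariate or factor, 3-month-old mice alone, and each liver left out. Permutation tests were exact and two-sided. Scripts were tested on simulated data.

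The text names the members, every tested selenoprotein gene, the 3 most abundant genes of each other list, any gene called, and 10 genes most like *Gpx3*; other names were chosen after their values were seen. A gene that this rule names is not reported here. Members and lists were chosen with earlier results of these data known. Codons and gene positions come from GENCODE vM21, 3′ ends were compared with blastn 2.17.0, and the cysteine codons were aligned with Biopython 1.88.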

Additional observations from a re-analysis of the deposited data

Results flagged for a closer look

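Among 22 genes, the members and the other listed selenoprotein genes, 44 groups of 4 livers were examined for a liver far from the others of its genotype, and 2.2 groups would be expected by chance. It happened 1 time. *Selenof*, which encodes a selenoprotein of the endoplasmic reticulum, was at a normalized count of 129 in *Rragc*+/+ replicate 3, while the other *Rragc*+/+ livers were between 44.0 and 55.0. In *Rragc* S74N/+ livers *Selenof* was at 245, 64.0, 32.3 and 225 in replicates 1 to 4.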

How the results depend on the processing

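Over 13 other settings and 8 fits that each left out 1 liver, 0 members other than *Gpx3* and 0 other selenoprotein genes were called in any. The number of genes called, 1 in the reported fit, was 0 in limma without the trend, with age as a covariate and in the 3-month-old mice alone, 3 with age as a factor, 10 in DESeq2, and 0 to 2 when a liver was left out. With age as a factor the 2-month-old *Rragc* S74N/+ liver had a term of its own and did not enter the contrast. The log2 fold change of *Gpx1*, 0.00387, turned to -0.00287 with upper-quartile rescaling and ranged between -0.118 and 0.131 over the fits without 1 liver, turning below 0 without *Rragc* S74N/+ replicate 1 (-0.0783), *Rragc* S74N/+ replicate 3 (-0.0543) or *Rragc*+/+ replicate 3 (-0.118). That of *Gpx4* turned to -0.321 when its counts were summed with those of *Gpx4-ps2*, and it had no value with a mean of at least 50. The causes were not tested, apart from the summing itself. Leaving out a liver gave -2.10 to -1.87 for *Gpx3*, 0.48 to 1.21 for *Gpx4*, -0.84 to -0.43 for *Dio1*, 0.15 to 0.52 for *Txnrd2*, 0.18 to 0.83 for *Sephs2* and 0.24 to 1.001 for *Selenop*, the lowest of the last without *Rragc*+/+ replicate 4. No paired analysis was possible because no label numbers or pairs the mice. *Gpx7* and *Gpx8* were limited by depth, with at most 16 reads per liver.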
